A study of Caenorhabditis elegans with 2 samples.

Results

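The microRNAs (miRNAs) described here are the products of the Caenorhabditis elegans genes mir-238, mir-239a and mir-239b. They were chosen by name, as every row of the deposited miRNA table named cel-miR-238, cel-miR-239a or cel-miR-239b with either arm (the prefix for the species is left out below), which gave 6 mature loci from 3 hairpins out of 375 loci from 223 hairpins. The enoxacin library came from whole N2 worms, the wild-type laboratory strain, with an age of Day 1 that had been given enoxacin. The vehicle library came from whole N2 worms with the same stated age that had been given the vehicle. The sources used here do not give the dose, the length of treatment or the nature of the vehicle. The submitters named 3 independent experiments, but there was 1 library per group. Whether the experiments were pooled into each library is not stated. No difference could therefore be set against a spread between cultures, and all intervals below are exact 95% intervals that cover counting error only.

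A miRNA gene is transcribed into a precursor that folds into a hairpin. Drosha and Dicer cut the hairpin into a short duplex, one arm of which (5p or 3p) is usually kept by an Argonaute protein while the other is degraded. The kept arm recognises messenger RNAs mainly through its seed, the bases near its 5′ end. miR-238-3p and the 5p arms of mir-239a and mir-239b share a seed and are placed in one seed family for that reason. In worms these genes are known for adult lifespan and stress resistance: loss of mir-238 is known to shorten life, whereas loss of the mir-239 pair is known to lengthen it and to raise resistance to heat and oxidants. Enoxacin is a fluoroquinolone antibiotic that also promotes miRNA processing in mammalian cells through the Dicer partner TRBP.

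Library totals of 8787665 reads for enoxacin and 10698845 for vehicle were recovered from the deposited counts and RPM. These values do not show which reads the totals cover. Mature miRNA loci held 3.78% of the total in enoxacin and 3.74% in vehicle. One read was thus worth 0.114 RPM (reads scaled to the library total, the unit of the deposited normalized columns) in enoxacin and 0.0935 RPM in vehicle. miRNAs known for single tissues were present, with 369.95 RPM in enoxacin and 409 RPM in vehicle for the muscle mir-1 arms and 5355 and 5666 RPM for the embryonic mir-35 to mir-42 arms. The neuronal list stood at 13.9 RPM in enoxacin and 16.3 RPM in vehicle, and its member lsy-6 went undetected, with limits of 3 reads, or 0.341 RPM in enoxacin and 0.280 RPM in vehicle.

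The 3 hairpins lie at 2 places in the genome (build ce10, taken from the submitters' processing notes). miR-238-3p occupies III:8867262-8867284 and miR-238-5p III:8867306-8867329, both on the minus strand, with 21 bases between the arms. miR-239a-5p occupies X:11792393-11792415 and miR-239a-3p X:11792436-11792457 on the plus strand. miR-239b-3p occupies X:11791254-11791275 and miR-239b-5p X:11791296-11791317 on the minus strand. The mir-239 hairpins have 20 bases between their arms. They point away from each other, with 1075 bases between the nearest arms, miR-239b-5p and miR-239a-5p. The mature loci are 22 to 24 bases long. In the WBcel235 annotation, searched by hairpin name, each of the 3 hairpins overlaps 0 other genes. The nearest genes of mir-238 there are mir-80 and the protein-coding K01F9.2, both on its own strand. Between the mir-239 hairpins lie the non-coding RNA gene C34E11.9 and the snoRNA gene C34E11.20.

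miR-238-3p was the most abundant of the 6 loci and was higher in the enoxacin library. It had 380 reads (43.2 RPM, exact Poisson interval 39.0 to 47.8) in enoxacin and 220 reads (20.6 RPM, 17.9 to 23.5) in vehicle. The intervals of the 2 libraries did not overlap. The ratio of enoxacin to vehicle was 2.10 (1.78 to 2.49), a log2 ratio of 1.07. Median-of-ratios scaling moved every log2 ratio by -0.15, and the ratio of miR-238-3p was then 1.90 (1.61 to 2.25). Among all 375 loci ordered by reads, miR-238-3p stood at place 52 in enoxacin and 59 in vehicle, where it took 0.114% and 0.0549% of miRNA reads. miR-238-5p, the rare arm of the same hairpin, had 3 reads (0.341 RPM) in enoxacin and 3 reads (0.280 RPM) in vehicle. Its ratio of 1.22 had an interval from 0.163 to 9.09, so neither a fall nor a rise of several-fold could be seen at this depth.

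Both arms of mir-239a were detected at moderate levels, and neither stood apart between the libraries beyond counting error. miR-239a-5p, the arm with the family seed, had 122 reads (13.9 RPM, 11.5 to 16.6) in enoxacin and 120 reads (11.2 RPM, 9.30 to 13.4) in vehicle. Its ratio was 1.24 (0.954 to 1.61). miR-239a-3p, the partner arm, had 88 reads (10.0 RPM, 8.03 to 12.3) in enoxacin and 102 reads (9.53 RPM, 7.77 to 11.6) in vehicle. Its ratio was 1.05 (0.781 to 1.41), and its log2 ratio of 0.07 turned to -0.07 under median-of-ratios scaling and to -0.06 under TMM scaling. For both arms the intervals of the libraries overlapped, and the upper bounds leave room for a ratio of 1.61 for the 5p arm and 1.41 for the 3p arm.

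mir-239b was close to the limit of detection. miR-239b-5p, the copy of the family arm, had 5 reads (0.569 RPM, 0.185 to 1.33) in enoxacin and 2 reads (0.187 RPM, 0.0226 to 0.675) in vehicle, a ratio of 3.04 with an interval from 0.498 to 32.0. miR-239b-3p had 0 reads in enoxacin, where the limit of 3 reads is 0.341 RPM and the exact Poisson upper bound 0.420 RPM, and 1 read (0.0935 RPM) in vehicle, and no ratio is given for it. Of all reads on the mir-239 hairpins, mir-239b took 2.33% (0.759 to 5.34%) in enoxacin and 1.33% (0.276 to 3.85%) in vehicle. The a and b copies are related in sequence. The sources used here do not say how reads that match both copies were counted, so the split between the copies is uncertain. With the copies added together, the 5p arms had 127 reads in enoxacin and 122 in vehicle (ratio 1.27, 0.981 to 1.64), and the 3p arms had 88 and 103 (1.04, 0.774 to 1.396).

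**Figure D1:**
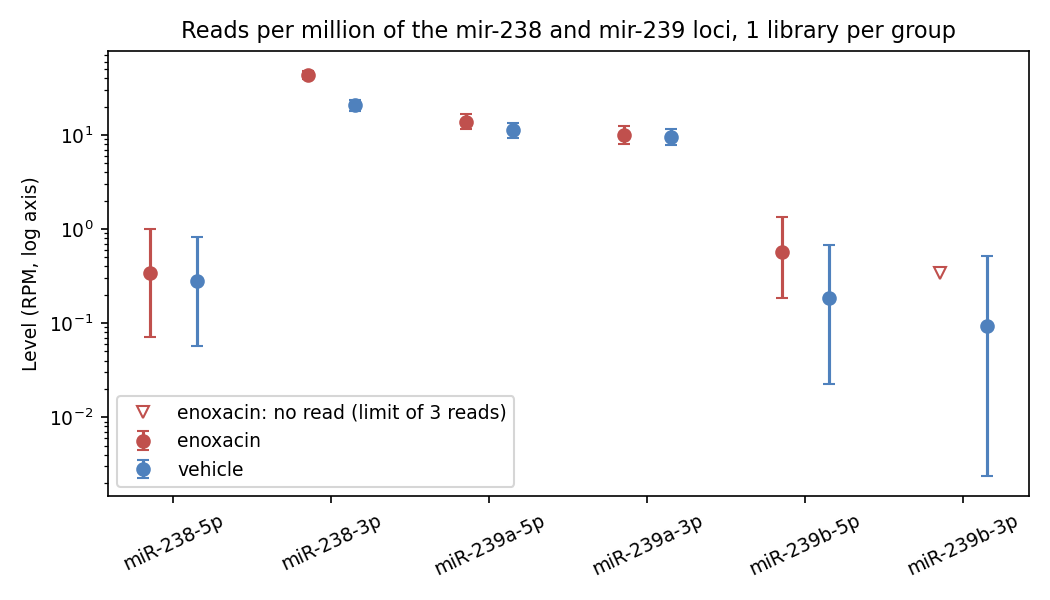
Level of each mature locus of mir-238, mir-239a and mir-239b in RPM on a log axis, with the enoxacin library in red and the vehicle library in blue. Bars are exact 95% Poisson intervals for counting error, the open triangle marks the limit of 3 reads where no read was found, and miR-238-3p is the locus whose 2 intervals lie apart, at 43.2 RPM in enoxacin and 20.6 RPM in vehicle.

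The order of the levels was miR-238-3p, miR-239a-5p, miR-239a-3p and then the 3 rare loci in both libraries. In enoxacin and in vehicle alike, the interval of miR-238-3p lay above that of miR-239a-5p. Those of miR-239a-5p and miR-239a-3p overlapped in each library. Compared directly, the 5p arm made up 58.1% of mir-239a reads in enoxacin, with an interval (51.1 to 64.8%) that excluded an even split. In vehicle it made up 54.1%, with an interval (47.3 to 60.7%) that included an even split. The 3 rare loci, with 0 to 5 reads each, could not be ordered. Levels of different miRNAs also carry differences in ligation and mapping, which were not measured.

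The reads of the 3 hairpins were divided differently in the 2 libraries, with more of them on miR-238-3p in enoxacin. The 6 loci together had 598 reads (68.0 RPM) in enoxacin and 448 reads (41.9 RPM) in vehicle, a ratio of 1.63 (1.44 to 1.84). miR-238-3p made up 63.5% of them in enoxacin (59.5 to 67.4%) and 49.1% in vehicle (44.4 to 53.8%), and these intervals did not overlap. miR-239a-5p made up 20.4% in enoxacin (17.2 to 23.9%) and 26.8% in vehicle (22.7 to 31.1%). miR-239a-3p made up 14.7% in enoxacin (12.0 to 17.8%) and 22.8% in vehicle (19.0 to 26.9%). Counted by hairpin, mir-238 and mir-239a were even in vehicle, with 223 and 222 reads, while enoxacin held 383 reads of mir-238 and 210 of mir-239a. The difference in summed level between enoxacin and vehicle was 26.2 RPM, and miR-238-3p accounted for 22.7 RPM, or 86.6%, of it. The other 5 loci together had 218 reads in enoxacin and 228 in vehicle, a ratio of 1.16 (0.962 to 1.41).

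**Figure D2:**
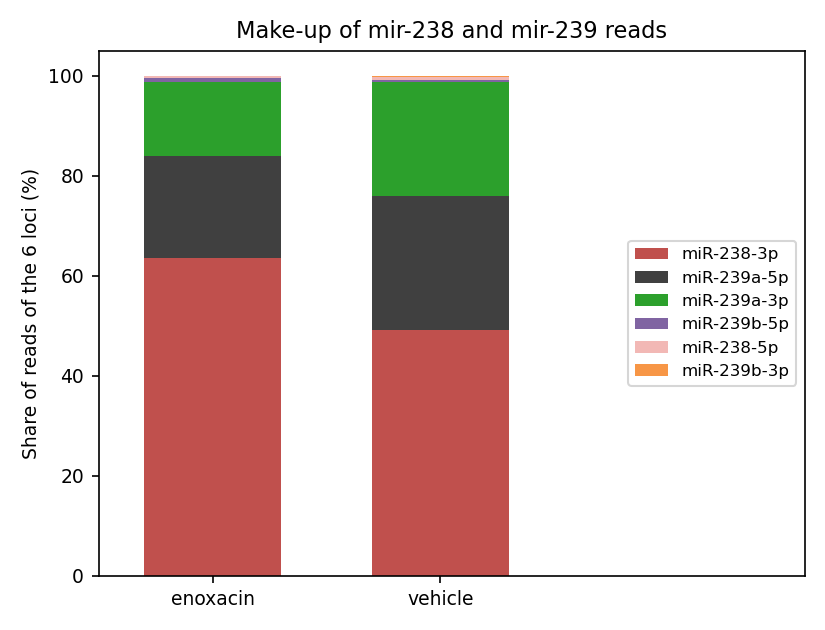
Share of the reads of the 6 loci taken by each, in percent, in the enoxacin library (left, 598 reads) and the vehicle library (right, 448 reads). miR-238-3p takes 63.5% in enoxacin and 49.1% in vehicle, and the 3 rare loci are barely visible at the top.

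Ratios between members within a library do not depend on how the libraries are scaled. There were 3.11 reads of miR-238-3p for each read of miR-239a-5p in enoxacin and 1.83 in vehicle, an odds ratio of 1.70 (exact conditional interval 1.24 to 2.32). Against miR-239a-3p the numbers were 4.32 in enoxacin and 2.16 in vehicle, an odds ratio of 2.0 (1.42 to 2.82). Both intervals excluded 1, so miR-238-3p differed from both mir-239a arms beyond counting error. The arms of mir-239a did not differ from each other in this way: there were 1.39 reads of the 5p arm for each read of the 3p arm in enoxacin and 1.18 in vehicle, an odds ratio of 1.18 (0.791 to 1.76). Pairs with a rare locus gave wide intervals, such as an odds ratio of 2.45 (0.392 to 26.2) for miR-239b-5p against miR-239a-5p and 0.691 (0.0653 to 4.27) for miR-238-3p against miR-239b-5p. In all, 8 pairs were compared, including the 2 genome neighbours below, and no p-value was computed for any of them.

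The 3 hairpins differed in how their arms were used. mir-238 was almost entirely one-armed, with the 3p arm making up 99.2% of its reads in enoxacin (97.7 to 99.8%) and 98.7% in vehicle (96.1 to 99.7%). mir-239a kept both arms, the 5p arm making up 58.1% in enoxacin (51.1 to 64.8%) and 54.1% in vehicle (47.3 to 60.7%). For mir-239b the 5p arm had 5 of 5 reads in enoxacin and 2 of 3 in vehicle, too few to tell either pattern. Among the 91 hairpins with both arms in the table and at least 20 reads over both libraries, the minor arm made up a median of 0.671% of the reads. In mir-239a it made up 44.0%, at place 6 from the most even, and 6 of the 91 hairpins were at or above 40%. Places 1 and 2 were held by the mir-5592 hairpins, which overlap on opposite strands and may share reads. In mir-238 it made up 0.990%, and 61 of the 91 hairpins were under 2%. mir-239a was thus among the most evenly used hairpins of the table and mir-238 was one of the 61 with a minor arm under 2%.

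**Figure D3:**
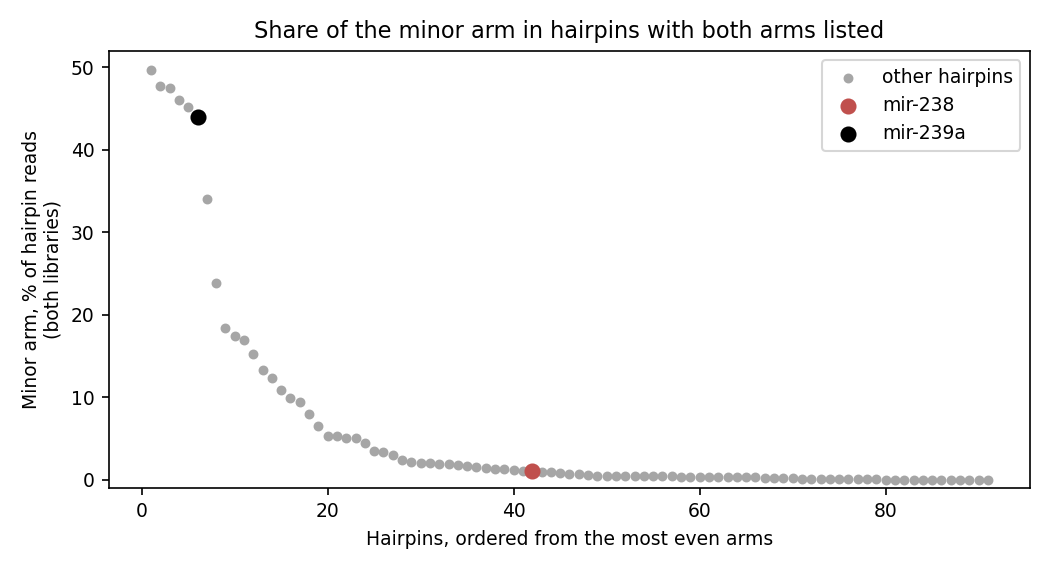
Share of hairpin reads taken by the minor arm, in percent over both libraries, for the 91 hairpins with both arms listed and at least 20 reads, ordered from the most even. mir-239a (black) stands at 44.0%, place 6, and mir-238 (red) at 0.990%, on the flat part of the curve.

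Against the whole table, miR-238-3p was one of a sizeable group of higher loci. Of the 375 loci, 152 had at least 20 reads in the 2 libraries together and were compared, and 3 of the 6 members were among them. To count as higher or lower, a locus needed a log2 ratio (pseudocount of 0.5 reads) past 1.5-fold and an interval that excluded a ratio of 1. By this criterion 20 of the 152 (13.2%) were higher and 12 (7.89%) were lower in enoxacin, and their median ratio was 1.09. Of the 3 compared members, 1 was higher (miR-238-3p), 0 were lower, and 2 (the mir-239a arms) were neither. Their median ratio of 1.24 is that of miR-239a-5p. All 3 members had at least 100 and under 1000 reads over both libraries, and in that range 26.1% of the 46 loci were higher and 8.7% were lower. Of the 59 loci under 100 reads, 8.47% were higher and 10.2% lower. Of the 47 loci with 1000 reads or more, 6.38% were higher and 4.26% lower. miR-238-3p had the ratio at place 10 from the highest of the 152, miR-239a-5p at place 61 and miR-239a-3p at place 84. Among the 93 loci with at least 100 reads, they stood at places 6, 37 and 54. The mir-239a arms were thus near the middle of the table.

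**Figure D4:**
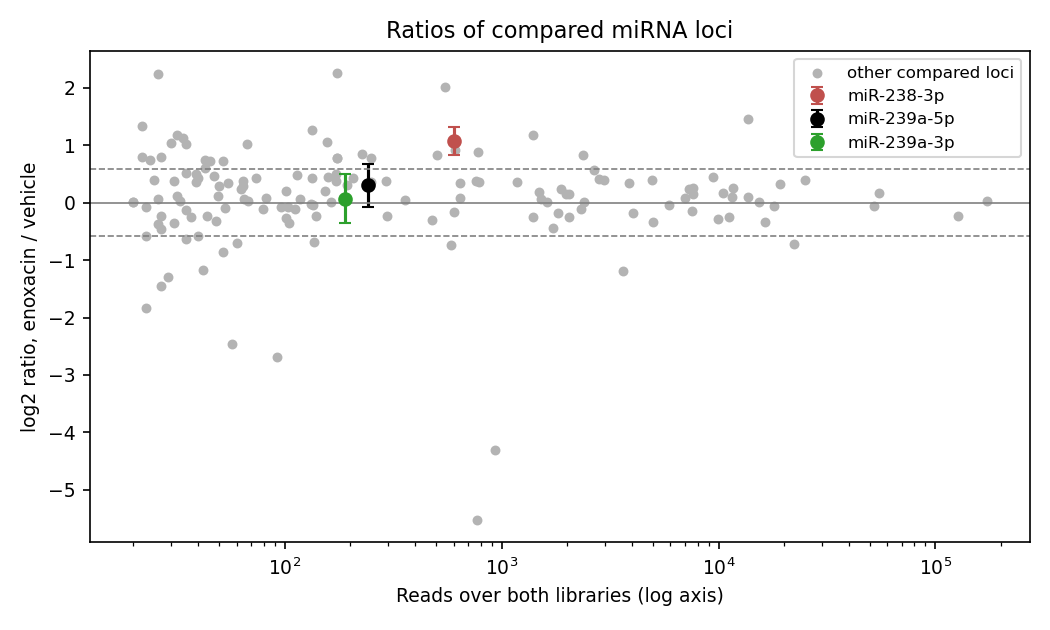
log2 ratio of enoxacin to vehicle against reads over both libraries (log axis) for the 152 compared loci, with miR-238-3p in red, miR-239a-5p in black and miR-239a-3p in green. Bars are exact 95% intervals for counting error and dashed lines mark 1.5-fold, and only miR-238-3p of these 3 lies above the upper line with its whole interval.

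The loci most like each member were taken as those with the nearest log2 ratio over the 2 libraries. For miR-238-3p they were miR-2214-3p (99 reads in enoxacin and 58 in vehicle), miR-80-5p (19 and 11), and, tied at the third place, miR-229-3p (42 and 25) and miR-794-5p (22 and 13). Their distances in log2 ratio were 0.02, 0.03 and, for the tied loci, 0.05. The interval of miR-794-5p included 1 (0.993 to 4.45). miR-80-5p had the same ratio of 2.10, but on so few reads that its interval ran from 0.951 to 4.89. For miR-239a-5p the nearest were miR-240-5p and miR-229-5p, with ratios of 1.24 and 1.254, and, tied at the third place, miR-358-3p and miR-233-3p, both with a ratio of 1.22. For miR-239a-3p they were miR-77-5p, miR-46-5p and miR-71-3p, with ratios from 1.04 to 1.05. The loci nearest to miR-238-3p in vehicle level, miR-70-3p (34.3 RPM in enoxacin and 19.2 in vehicle) and miR-74-3p (42.2 and 22.3), were also higher in enoxacin, with ratios of 1.79 (1.49 to 2.15) and 1.89 (1.60 to 2.23). Near miR-239a-5p in vehicle level were miR-58-5p, with a ratio of 1.29 (0.997 to 1.67), and miR-47-3p, which was higher at 4.06. Near miR-239a-3p were miR-75-3p, higher at 1.73 (1.33 to 2.24), and miR-246-3p. Loci of the same abundance as a member therefore spanned a range of ratios.

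The hairpins closest to mir-238 on chromosome III did not show the ratio of miR-238-3p in their abundant arms. mir-80, whose miRNA belongs to the bantam-related family, lies 1993 bases from mir-238 on the same strand. miR-80-3p had 2987 RPM in enoxacin and 2669 RPM in vehicle, a ratio of 1.12 (1.10 to 1.14). mir-90 lies 6590 bases away on the other side, also on the minus strand. miR-90-3p had 34.1 RPM in enoxacin and 32.1 RPM in vehicle, a ratio of 1.06 (0.909 to 1.247). The odds ratio of miR-238-3p was 1.88 (1.59 to 2.23) against miR-80-3p and 1.97 (1.56 to 2.49) against miR-90-3p. Their minor arms had few reads. miR-80-5p, with a ratio of 2.10, counted as neither by the 1.5-fold criterion. miR-90-5p had 15 reads in enoxacin and 7 in vehicle, a ratio of 2.61 (1.001 to 7.56), and counted as higher.

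Other miRNAs known for lifespan or stress resistance in worms were taken from 9 hairpins with 18 loci. Of these, 15 were compared: 1 was higher in enoxacin, 1 was lower and 13 were neither, with a median ratio of 1.01 against 1.09 over all 152 loci. Over all 152 loci, 20 (13.2%) were higher and 12 (7.89%) were lower. The higher one was miR-60-3p, an intestinal miRNA whose loss is known to extend life under oxidative stress, with 907 reads in enoxacin and 488 in vehicle (2.26, 2.02 to 2.53). The lower one was miR-34-5p, with 37 and 900 reads (0.0501). miR-246-3p, which like mir-238 is known to support lifespan, had 109 and 98 reads (1.35, 1.02 to 1.797). miR-71-5p, the best known lifespan-promoting miRNA of the worm, was near equal at 791 RPM in enoxacin and 786 RPM in vehicle (1.01). miR-83-3p, linked to the decline of autophagy with age, was at 1.31 (1.13 to 1.51) and lin-4-5p, a timing miRNA that also supports lifespan, at 1.18. miR-80-3p, linked to dietary restriction, was at 1.12 as given above. miR-228-5p was at 1.01, miR-34-3p at 0.883 and the neuronal miR-124-3p at 0.847 (0.666 to 1.07). The 3 genes known together for support of adult life, mir-71, mir-238 and mir-246, thus had ratios of 1.01, 2.10 and 1.35 in their main arms.

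Of the tissue and stage lists, 2 had a ratio of enoxacin to vehicle above 1, the direction of miR-238-3p, and 2 had a ratio below 1. Each of these had an interval that excluded 1, but only the intestinal list was past 1.5-fold. The intestinal list, both arms of mir-60, had 2 of 2 loci with reads in each library, at 104.4 RPM in enoxacin and 47.2 RPM in vehicle (ratio 2.21, 1.98 to 2.47). It was almost wholly miR-60-3p, already named above, with 907 of its 917 reads in enoxacin. The other arm, miR-60-5p, had a ratio of 0.716 (0.293 to 1.66). The late larval and adult list, both arms of let-7, had 166 RPM in enoxacin and 112 RPM in vehicle (1.48, 1.37 to 1.60). By the 1.5-fold criterion let-7-5p counted as neither. The main arms of mir-48, mir-241 and mir-84, which belong to the let-7 family, did not share its ratio. They stood at 0.885 (0.831 to 0.942) for miR-48-5p, 0.891 (0.755 to 1.05) for miR-241-5p and 1.06 (1.02 to 1.12) for miR-84-5p. The 2 lists with a ratio below 1 were muscle, at 0.904 (0.864 to 0.946), and embryo, at 0.945 (0.934 to 0.957). The main arms summed in the embryo list went both ways. miR-35-3p, miR-36-3p, miR-37-3p and miR-42-3p had ratios from 0.790 to 0.964. miR-38-3p, miR-39-3p, miR-40-3p and miR-41-3p had ratios from 1.07 to 1.32, each with an interval above 1. The epidermis and glia list had a ratio of 1.00 (0.925 to 1.09) and the neuronal list 0.854 (0.672 to 1.08). The part of tissue make-up or stage in the ratio of miR-238-3p was not tested. In whole worms, fewer cells of a type and less RNA per cell cannot be told apart.

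**Figure D5:**
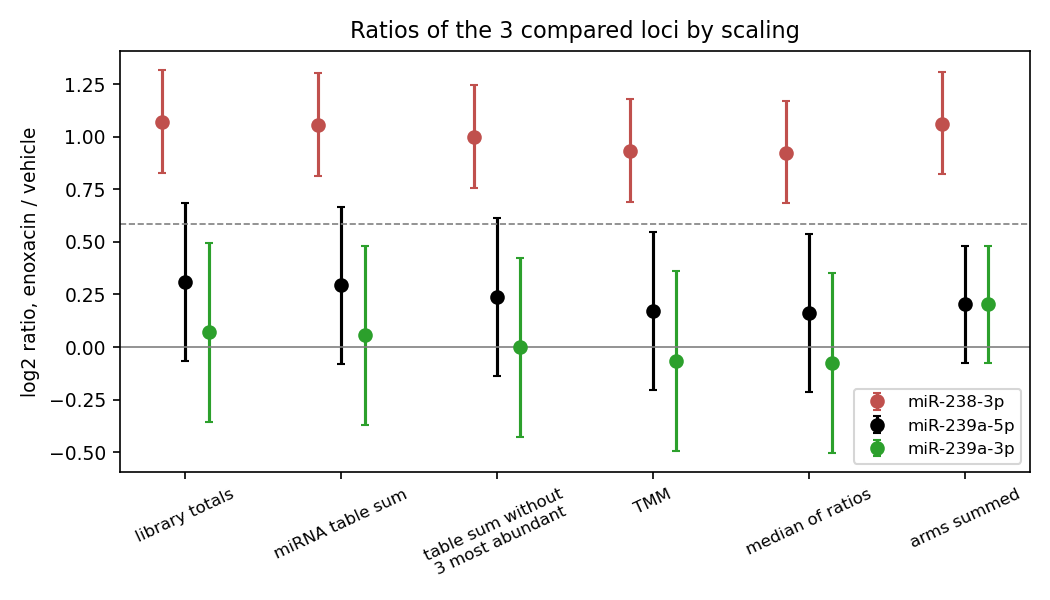
log2 ratio of enoxacin to vehicle for miR-238-3p (red), miR-239a-5p (black) and miR-239a-3p (green) under 5 scalings and with the arms of each hairpin summed, with exact 95% intervals for counting error. miR-238-3p lies between 0.93 and 1.07, above the dashed 1.5-fold line throughout, while miR-239a-3p lies on both sides of 0.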

How the data were processed

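The authors deposited 1 table with a raw read count per mature miRNA locus and library, the RPM of each count, and the authors' ratio (enoxacin over vehicle) with its log2 (per the file headers). The control column was assigned to the vehicle sample, described as control worms. Library totals were recovered by dividing the deposited counts by their RPM. Bowtie2, bedtools and ce10 are named in the submitters' processing notes without roles, versions or settings. Per the labels' protocols, small RNA was enriched from 10 µg of total RNA per group and made into SOLiD libraries. The recovered totals were 8787665 reads for enoxacin and 10698845 for vehicle.

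Ratios used the library totals, with exact conditional binomial intervals (95%), and shares used Clopper-Pearson intervals. No molecular identifiers are named, so reads may not be independent molecules and these intervals cover counting error only. The fold criterion used log2 ratios with a pseudocount of 0.5 reads. No p-value was computed. The named loci are all members, the 3 compared loci nearest in log2 ratio (with ties) and the 2 nearest in vehicle RPM for each compared member, and the most abundant arm of each listed lifespan or stress miRNA. Further loci (miR-34-5p, the mir-5592 loci, the minor arms of mir-80 and mir-90, and miR-90-3p) were named for a count or for position. The minor arm of mir-60, let-7-5p, miR-48-5p, miR-84-5p, miR-241-5p and the 3p arms of mir-35 to mir-42 were named beside the tissue and stage lists. The members, lists and read ranges were chosen with earlier results of these data known. Alternatives were other scalings (TMM from edgeR 4.0.16 among them), minimums, thresholds, a pseudocount of 1, and summed arms or copies. Python 3.11.15, numpy 2.4.6, pandas 2.3.3, scipy 1.17.1, matplotlib 3.10.9 and R 4.3.3 were used.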

Additional observations from a re-analysis of the deposited data

How the results depend on the processing

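miR-238-3p counted as higher under all 7 settings run (the library totals, 4 other scalings, a pseudocount of 1 and summed arms), with log2 ratios from 0.93 to 1.07. With the library totals it also counted as higher at the lower threshold and that of 2-fold. Its ratio was under 2-fold with TMM (1.91) and median-of-ratios scaling (1.90). miR-239a-5p (0.16 to 0.34) and miR-239a-3p (-0.07 to 0.20) counted as neither under all 8 settings run for them, which include summed mir-239 copies. The 0.34 is the value of the summed 5p copies and the 0.20 that of the summed mir-239a arms. Taken alone, the 5p arm reached at most 0.31 and the 3p arm 0.07. Median-of-ratios and TMM scaling moved every log2 ratio by -0.15 and -0.14. With the major arms only, miR-238-3p made up 74.95% of member reads in enoxacin and 64.3% in vehicle, since fewer loci were summed. Of 152 compared loci, the 20 higher became 12 at 2-fold, 35 at the lower threshold and 13 of 103 hairpins with arms summed. The 12 lower became 6 of 93 with a minimum of 100 reads and 7 of 103 with arms summed, where fewer loci were compared. No paired analysis was possible because each group had 1 library, and there was no replicate to leave out. Depth limits the 3 rare members.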
